A study of Rattus norvegicus with 10 samples.

Results

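The genes described here are feedback inhibitors of the MAP kinase pathways, measured as messenger RNA in the hippocampus of rats with epilepsy and of sham rats. The set was 10 named rat genes: the dual specificity phosphatases Dusp1, Dusp4, Dusp5, Dusp6 and Dusp14, the Sprouty genes Spry1, Spry2 and Spry4, the Sprouty-related gene Spred1, and Dusp11, a phosphatase that acts on RNA and was included as a contrast. Each gene was represented by the row of the count table whose RefSeq transcript maps to its symbol, and by the row with the highest mean count where several did. Of the 10 genes, 9 had such a row and all 9 were tested among 22447 features, a feature being a row of the table. Spry1 had no row matched to its symbol and is named only.

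The 10 animals were male Sprague-Dawley rats, which are outbred, and RNA was extracted from a piece of the left hippocampus with CA3 and dentate gyrus, while the tissue label reads dorsal hippocampus. Every rat had electrodes implanted, with a wire in the left lateral amygdala, under isoflurane after butorphanol at 0.5 mg/kg. The 5 sham rats, numbered 1 to 5, received no current. The 5 stimulated rats, numbered 6 to 10, were driven into status epilepticus, a prolonged seizure, by trains of 400 µA pulses at 60 Hz for 30 min, and diazepam at 20 mg/kg was injected to stop it. Tissue was taken 3 months later, when per the study's methods the stimulated rats had spontaneous seizures. The groups thus differ in the stimulation, in diazepam and in the later seizures together. Per the methods, stimulation was prolonged in animals that did not enter status epilepticus, and diazepam was repeated where the first dose failed. Which rats this concerned is not stated. Libraries held 13552309 to 24086059 aligned counts, and the members were counted at between 38 reads (Dusp11) and 2898 reads (Spry2) per library. The labels give 5 stimulated rats and the methods count 4 for this assay, so all 10 libraries were used and each was left out in turn.

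MAP kinases such as ERK are switched on when growth factors or synaptic activity activate Ras and the kinases below it, and they drive transcription of immediate early genes in neurons and glia. Among the transcripts they induce are their own brakes. Dual specificity phosphatases remove phosphate from the kinases, whereas Sprouty and Spred proteins act further up, between growth factor receptors, Ras and Raf.

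Promoter sequences of the members were read for the elements through which activity and growth factor signals are known to reach immediate early genes: the cyclic AMP response element (CRE) TGACGTCA, its shorter core TGACG, the AP-1 site TGANTCA, the ETS core CCGGAAG and the CArG box, the binding element of serum response factor. Both strands were searched in RefSeq promoters of the GRCr8 assembly, which run from 250 bases before to 50 bases after a transcript start. Entries were found for 9 of the 10 genes, 12 promoters in all, with none for Dusp4. The full CRE was in the promoters of Dusp1 and Dusp11 and in 1.83% of the 33469 rat promoters of this length. The CArG box was found in Dusp5 alone of the members and in 1.64% of all promoters, and there it occurred as 2 adjoining boxes, at -82 to -73 and -72 to -63 from the start. The short core, which lies within every full CRE, was in 5 member genes (Dusp1, Dusp5, Dusp11, Dusp14 and Spry2) and in 21.2% of all promoters. The AP-1 site was in Dusp14 and in 7.33% of promoters, and the ETS core was in 0 members and 8.75% of promoters. The 3 stretches that hold a full CRE or a CArG box are shown because Dusp1, Dusp5 and Dusp11 are the members with these elements, and each stretch ends before the gene's outermost start. Capitals mark the CRE in Dusp1 and Dusp11 and the paired CArG boxes in Dusp5, and the stretches lie at chr10:17184699-17184766 (+ strand), chr4:119942644-119942700 (- strand) and chr1:262543662-262543741 (+ strand).
Dusp1: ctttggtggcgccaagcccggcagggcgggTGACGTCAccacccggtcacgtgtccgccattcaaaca
Dusp11: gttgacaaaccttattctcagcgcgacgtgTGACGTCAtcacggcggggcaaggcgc
Dusp5: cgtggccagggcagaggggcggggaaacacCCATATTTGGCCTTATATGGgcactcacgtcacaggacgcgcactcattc
Matches are a description of these letters, and binding was not measured.

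No member passed an adjusted p-value under 0.05 with edgeR's quasi-likelihood test, nor did any of the 22447 features (0%). With edgeR's likelihood ratio and exact tests and with DESeq2, 1 member passed, Dusp11, among 119, 90 and 33 features. At an unadjusted p-value under 0.05, 7 of the 9 members were higher in stimulated rats, where 6.7% of all features were, and 0 were lower, where 3.16% of all features were. The 7 were Dusp4, Dusp5, Dusp6, Dusp14, Dusp11, Spry2 and Spred1. Only Dusp11 was under 0.001 with the quasi-likelihood test, against 0.156% of all features. The study applied this cut-off to its own edgeR test. Levels did not overlap between the groups for Dusp11 and Spred1, a separation seen with stimulated rats higher in 0.695% of all features. The median log2 fold change over all features was 0.01. The study named Dusp4 among genes with both altered mRNA and altered methylation in introns. Its list of changed transcripts was made from libraries of these same rats (4 of the 5 stimulated ones per its methods). Dusp4, Dusp11, Spry2 and Spred1 are on it, under 0.001 and also under an adjusted p of 0.05 with the study's edgeR test. The counts above are thus not independent evidence for these 4. The members were chosen with earlier results of these data known, so the counts are not independent evidence for the other members either. Of the genes named below, Dusp2, Dusp23, Spred2, Errfi1, Hbegf, Vegfa, Fos, Egr1, Egr2 and Etv5 are on the study's list as well. Most of the genes named for their likeness to Dusp4 and Dusp11 are on it too.

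**Figure D1:**
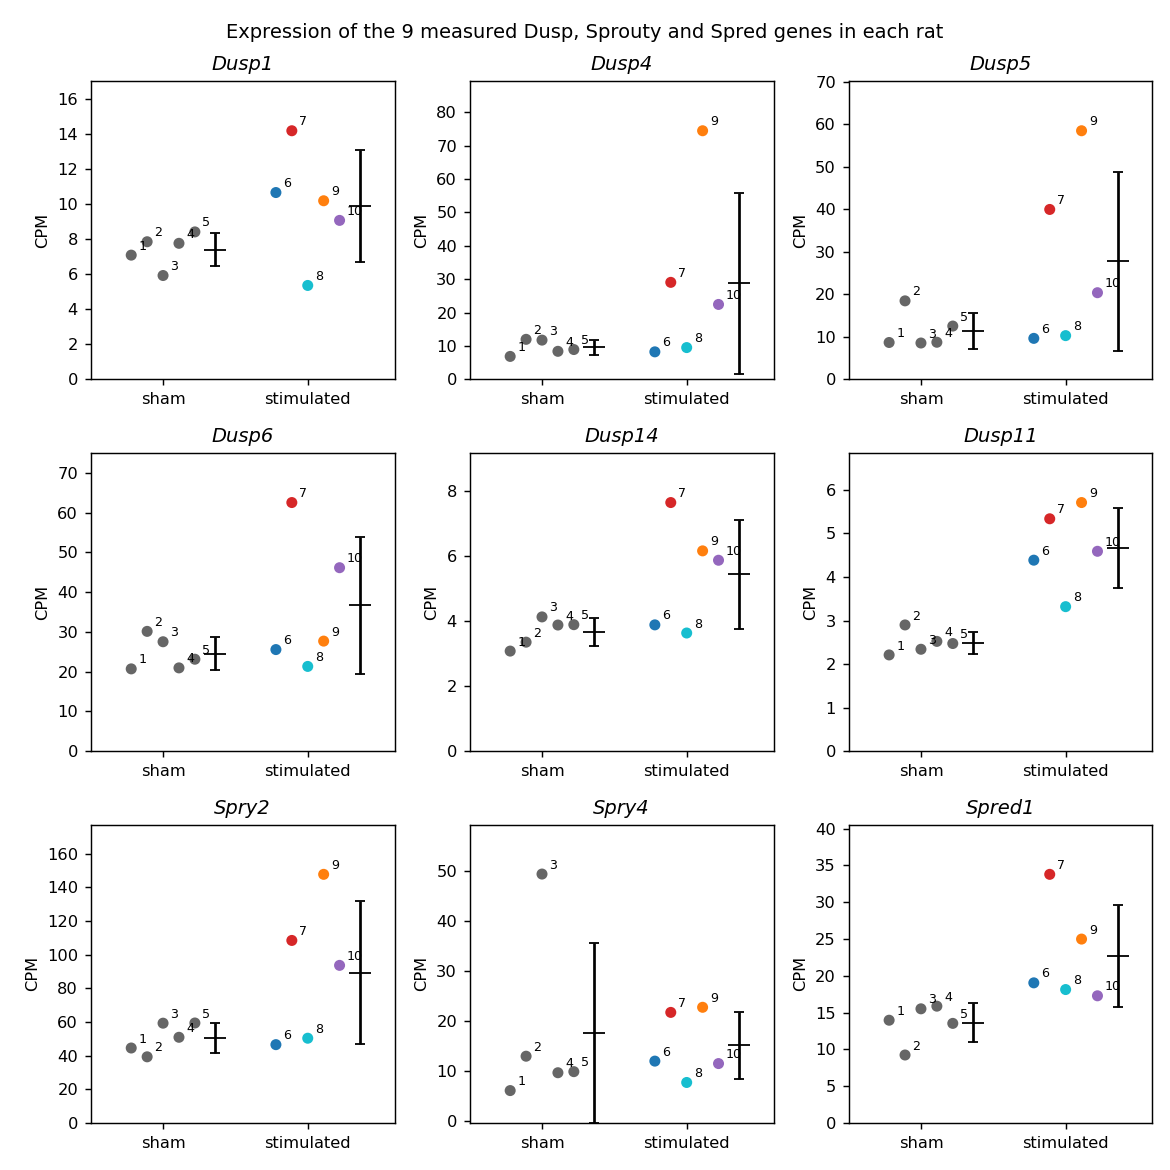
Level of each of the 9 measured genes in CPM (reads scaled by library size, vertical axis, from 0) in every rat; points are rats by number, and the bar beside each group is the mean with its SD. For Dusp4, Dusp5, Dusp14 and Spry2, rats 7, 9 and 10 lie above the sham rats while rats 6 and 8 lie among them, and for Spry4 the highest point is sham rat 3 at 49.4 CPM.

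The nuclear MAP kinase phosphatases Dusp4 and Dusp5 had the largest fold changes of the members. Dusp4 (NM_022199), an inducible phosphatase of the nucleus, was at 6.86, 12.0, 11.8, 8.39 and 8.92 CPM, reads scaled by library size, in sham rats 1 to 5. In stimulated rats 6 to 10 it was at 8.23, 29.1, 9.51, 74.5 and 22.4 CPM. Rats 7, 9 and 10 lay above every sham rat, rats 6 and 8 lay inside the sham range, and rat 9 alone was far above the rest. Group means were 9.58 ± 2.22 and 28.8 ± 27.0 CPM (SD, n = 5 each). The log2 fold change was 1.59 (SE 0.49), with an unadjusted p of 0.00563 and an adjusted p of 0.396. Without rat 9 it was 0.85, and the exact permutation test of the mean log2 CPM gave p = 0.111 over all assignments of the rats to the groups.

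Dusp5 (NM_133578), a nuclear phosphatase specific for ERK, was at 8.66, 18.5, 8.54, 8.72 and 12.5 CPM in the sham rats and at 9.63, 40.0, 10.3, 58.5 and 20.4 CPM in the stimulated rats. The order of the stimulated rats 7, 9 and 10 was that of Dusp4, although the margin of rat 10 over sham rat 2 was small. Again rats 6 and 8 lay inside the sham range. Means were 11.4 ± 4.30 and 27.8 ± 21.1 CPM (SD, n = 5 each). The log2 fold change was 1.30 (SE 0.44), with an unadjusted p of 0.0114 and an adjusted p of 0.409, and the exact permutation test gave p = 0.111. Leaving out rat 9 lowered the fold change to 0.81 and moved the unadjusted p to 0.0527. A long non-coding RNA gene overlaps Dusp5 in the current RefSeq table, the library kit did not mark strand, and reads from the shared stretch cannot be assigned.

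Dusp1 (NM_053769), the phosphatase that is itself an immediate early gene and acts on p38, JNK and ERK, was at 7.09, 7.86, 5.93, 7.77 and 8.42 CPM in sham rats. Its level in the stimulated rats was 10.7, 14.2, 5.36, 10.2 and 9.08 CPM. Rats 6, 7, 9 and 10 were above all sham rats and rat 8 was below all of them. The means were 7.42 ± 0.954 and 9.90 ± 3.18 CPM (SD, n = 5 each). Its log2 fold change was 0.42 (SE 0.21), the unadjusted p was 0.0663 and the adjusted p was 0.533. The fold change was 0.56 without rat 8, with an unadjusted p of 0.00497, and 0.26 without rat 7.

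Dusp6 (NM_053883), the cytoplasmic phosphatase specific for ERK, was at 20.7, 30.1, 27.5, 21.0 and 23.1 CPM in sham rats and at 25.6, 62.6, 21.3, 27.7 and 46.2 CPM in stimulated rats. Here only rats 7 and 10 exceeded the sham range, and rat 9, the highest rat for Dusp4 and Dusp5, was among the sham rats. Means of 24.5 ± 4.18 and 36.7 ± 17.3 CPM (SD, n = 5 each) gave a log2 fold change of 0.59 (SE 0.25). Its unadjusted p was 0.0373 and its adjusted p 0.471, and the exact permutation test gave p = 0.183. Without rat 7 the fold change was 0.31 and the unadjusted p 0.145.

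Dusp14 is a small phosphatase that lacks the kinase docking domain of the classical MAP kinase phosphatases. Its most abundant row (NM_001270835) was at 3.08, 3.36, 4.14, 3.89 and 3.90 CPM in the sham rats. The stimulated rats had 3.89, 7.66, 3.64, 6.17 and 5.88 CPM. Rats 7, 9 and 10 were above the sham range, by a narrower margin than for Dusp4, and rats 6 and 8 were within it. Means were 3.67 ± 0.435 and 5.45 ± 1.68 CPM (SD, n = 5 each), the log2 fold change was 0.57 (SE 0.21), and the unadjusted p was 0.0187 (adjusted p 0.421). The exact permutation test gave p = 0.0714. Reads were also assigned to 2 further rows of the gene, with log2 fold changes of 0.47 and 0.38 and unadjusted p-values of 0.0583 and 0.117, and how reads shared by the 3 transcripts were counted was not stated. Without rat 7 the fold change of the main row was 0.41 and its unadjusted p 0.0610. A ribosomal protein pseudogene lies within the span of Dusp14 in the RefSeq table.

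Dusp11 (NM_001025650), which removes phosphates from the ends of RNA and is not a MAP kinase phosphatase, had the smallest p-value of the members. It was at 2.21, 2.90, 2.34, 2.52 and 2.47 CPM in sham rats, which are 38 to 61 reads. In the stimulated rats it was at 4.39, 5.34, 3.32, 5.71 and 4.59 CPM, or 52 to 115 reads. The groups did not overlap, rats 6 and 8 included, and rat 8 was the lowest of the stimulated. The exact Poisson 95% interval of rat 8, 2.48 to 4.35 CPM, overlapped that of sham rat 2, 2.05 to 3.98 CPM. Means were 2.49 ± 0.260 and 4.67 ± 0.927 CPM (SD, n = 5 each). The log2 fold change was 0.91 (SE 0.18), with an unadjusted p of 2.2e-04 and an adjusted p of 0.376. The exact permutation test gave p = 0.00794, the smallest that 5 against 5 rats allow. Its fold change ranged from 0.82 to 0.99 when rats were left out in turn. With the likelihood ratio test and the exact test of edgeR and with DESeq2, Dusp11 passed the adjusted threshold, at 0.0124, 0.0167 and 0.0156.

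**Figure D2:**
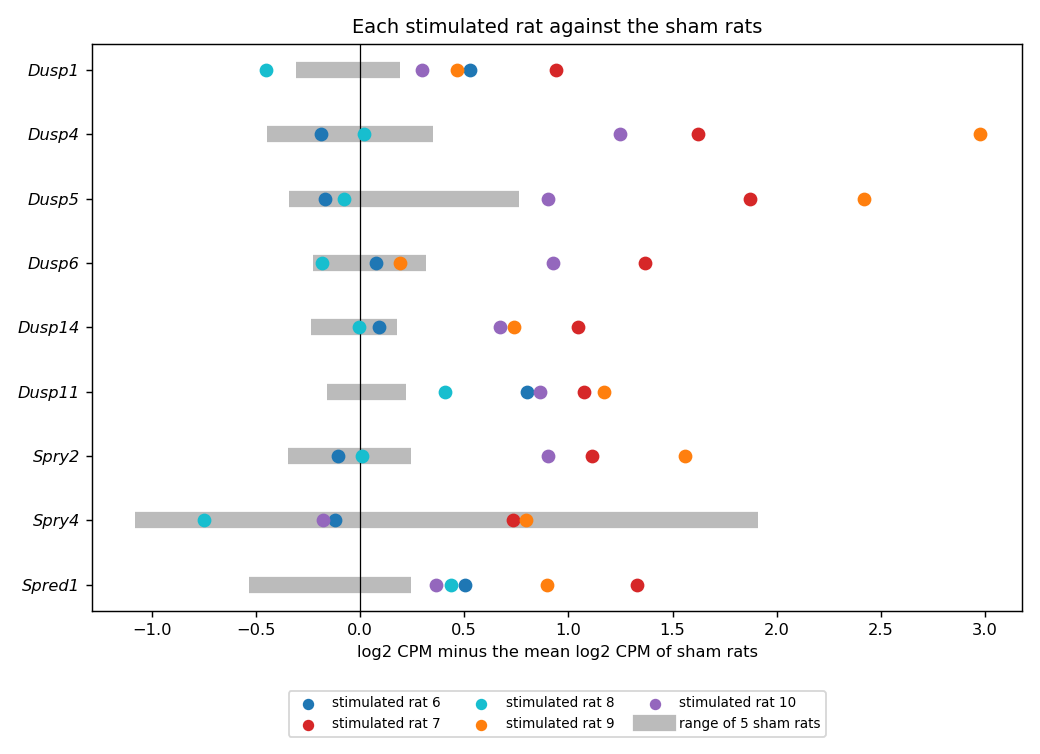
Difference of each stimulated rat from the mean of the sham rats in log2 CPM (horizontal axis) for the 9 genes; coloured points are stimulated rats 6 to 10 and the grey bar is the range of the 5 sham rats. All 5 points lie to the right of the grey bar for Dusp11 and Spred1, and 3 points do for Dusp4, Dusp5, Dusp14 and Spry2.

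Among the Sprouty and Spred genes, the groups overlapped for Spry2 and Spry4 and did not for Spred1. Spred1 (NM_001047089), which brings the Ras-inactivating protein neurofibromin to the membrane, was at 14.0, 9.23, 15.5, 15.9 and 13.5 CPM in sham rats and at 19.0, 33.8, 18.1, 25.0 and 17.3 CPM in stimulated rats. The lowest stimulated rat was rat 10, whose margin over sham rat 4 was small, and the highest was rat 7. The means were 13.6 ± 2.65 and 22.7 ± 6.93 CPM (SD, n = 5 each), and the log2 fold change was 0.73 (SE 0.20). The unadjusted p was 0.00246 and the adjusted p 0.376, and the exact permutation test gave the smallest possible p, 0.00794. Without rat 7 the fold change was 0.54. An enolase pseudogene lies in the span of Spred1 in the RefSeq table.

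Spry2 (NM_001012046), an inhibitor of growth factor receptor signalling to ERK, was at 44.5, 39.3, 59.3, 50.9 and 59.4 CPM in the sham rats. It was at 46.5, 108.5, 50.4, 147.8 and 93.7 CPM in the stimulated rats. As for Dusp4, rats 7, 9 and 10 stood above every sham rat, with rat 9 highest, and rats 6 and 8 were within the sham range. Means were 50.7 ± 8.91 and 89.4 ± 42.3 CPM (SD, n = 5 each). The log2 fold change was 0.82 (SE 0.27), with an unadjusted p of 0.00900 and an adjusted p of 0.403, and the exact permutation test gave p = 0.0952. Without rat 9 the fold change was 0.55.

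Spry4 (NM_001106150), of the same family as Spry2, was at 6.11, 13.0, 49.4, 9.67 and 9.89 CPM in sham rats and at 12.0, 21.7, 7.72, 22.7 and 11.5 CPM in stimulated rats. The highest value of all 10 was that of sham rat 3, from 907 reads, with an exact Poisson 95% interval of 46.2 to 52.7 CPM, so counting error does not span its distance from the other sham rats. Whether these reads all came from Spry4 cannot be told from the count table, and the group difference below carries that limit. Rats 7 and 9 were the highest of the stimulated, as for Dusp4, but no stimulated rat exceeded sham rat 3. Means were 17.6 ± 17.9 and 15.1 ± 6.70 CPM (SD, n = 5 each). The log2 fold change was -0.21 (SE 0.49), with an unadjusted p of 0.672 and an adjusted p of 0.916. Without sham rat 3 it was 0.65, with an unadjusted p of 0.0576.

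The members were next read rat by rat. Of the 9 measured genes, 8 were above the highest sham rat in rat 7, 7 in rat 9 and 8 in rat 10, against 3 in rat 6 and 2 in rat 8. The median difference from the sham mean over the 9 genes was 1.12 on the log2 scale in rat 7, 0.90 in rat 9 and 0.86 in rat 10. It was 0.08 in rat 6 and -0.0045 in rat 8. In rat 6 the genes above the sham range were Dusp1, Dusp11 and Spred1, and in rat 8 they were Dusp11 and Spred1. The highest stimulated rat was rat 7 for Dusp1, Dusp6, Dusp14 and Spred1 and rat 9 for Dusp4, Dusp5, Dusp11, Spry2 and Spry4. These counts describe single animals, which the labels do not divide further.

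**Figure D3:**
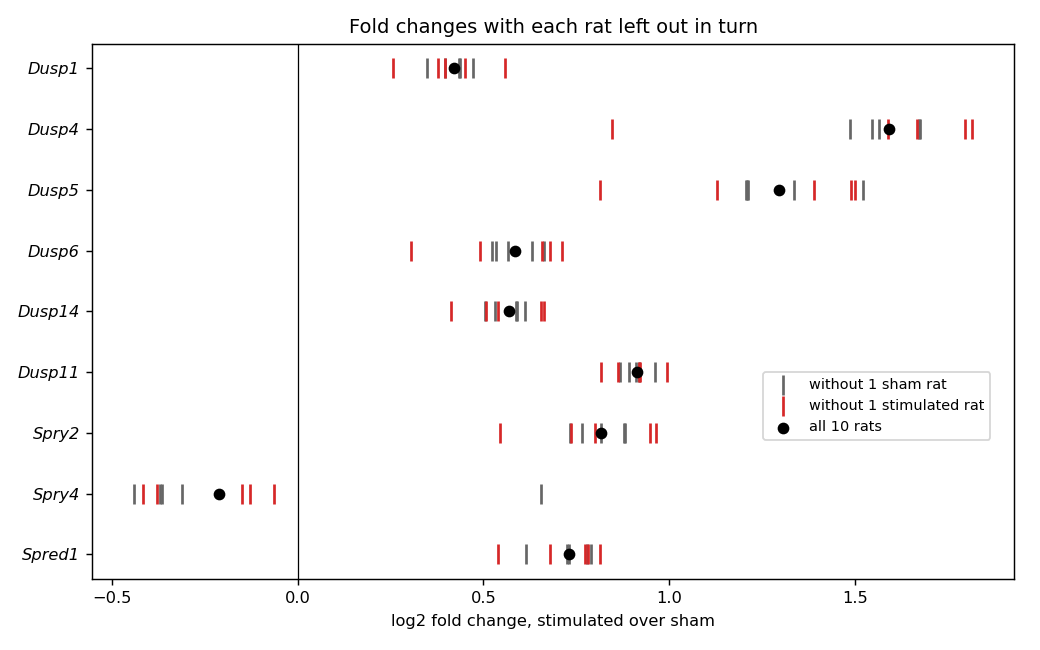
Log2 fold change of stimulated over sham rats (horizontal axis) for each gene with all 10 rats (black points) and with each rat left out (grey ticks, a sham rat; red ticks, a stimulated rat). The tick farthest from its point is the omission of rat 9 for Dusp4, where the value goes from 1.59 to 0.85, and of sham rat 3 for Spry4, where it goes from -0.21 to 0.65.

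Marker genes of hippocampal and other cell types were summed in the same libraries. Those of astrocytes (5 of 6 listed genes tested) came to 2386 to 2952 CPM in sham rats and to 2424 and 2510 CPM in rats 6 and 8, but to 7665, 3355 and 6617 CPM in rats 7, 9 and 10. Of those 5 astrocyte genes 3 were higher at an unadjusted p under 0.05, 1 had a log2 fold change below 0, and their median was 0.22. Microglial markers (7 of 7) came to 320 to 409 CPM in sham rats and to 586, 500 and 433 CPM in those 3 rats. Endothelial markers (7 of 7) came to 170 to 192 CPM in sham rats, and to 188, 151, 222.5, 183 and 313 CPM in rats 6 to 10, so rats 8 and 10 were above the sham range and rat 7 below it. Markers of dentate granule cells (3 of 5) ranged from 243 to 298 CPM in sham and from 159 to 355 CPM in stimulated rats, and those of CA3 pyramidal cells (3 of 5) from 455 to 521 and from 445 to 562 CPM, so markers of the sampled fields were present in every rat. Oligodendrocyte markers (6 of 6) ranged from 2531 to 3654 and from 2044 to 3414 CPM, and CA1 markers (4 of 4) from 167 to 290 and from 98.1 to 343 CPM. Choroid plexus markers (5 of 5) were lowest, at 3.18 to 18.6 and 7.75 to 27.2 CPM, and of all these genes a count of 0 in some library occurred for 1 CA1 and 1 choroid plexus marker. The 3 rats in which most members were above the sham range are thus those with the highest astrocyte and microglial sums, and the part of these cells in the result was not tested. In tissue RNA, more cells of a type and more RNA per cell cannot be told apart.

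The families of the 9 members were read as whole lists, which include the members themselves. Of 10 listed MAP kinase phosphatases 9 were tested. At an unadjusted p under 0.05, 4 were higher and 0 lower, where 6.7% and 3.16% of all features were. Of the 4, Dusp4, Dusp5 and Dusp6 are members and Dusp2 is not. The median log2 fold change was 0.42, the value of the member Dusp1, beside 0.01 over all features. This list is thus no background separate from the members. Dusp2, an inducible nuclear phosphatase, was at 2.23 to 3.37 CPM in sham rats and at 1.72, 7.94, 1.15, 57.6 and 4.95 CPM in stimulated rats 6 to 10. Rats 7, 9 and 10 were above and rats 6 and 8 below every sham rat, and the log2 fold change was 2.44 (SE 0.84, unadjusted p 0.0121). Dusp8, Dusp10 and Dusp16, which prefer JNK and p38 as substrates, had log2 fold changes of -0.14, -0.11 and -0.05. Dusp9, a cytoplasmic phosphatase of ERK, was at 0.30 (unadjusted p 0.0661).

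Among atypical dual specificity phosphatases, 10 of 15 listed were tested. At an unadjusted p under 0.05, 4 were higher and 2 lower, where 6.7% and 3.16% of all features were, and the median log2 fold change was 0.02. Besides Dusp11 and Dusp14 the higher genes were Dusp18 and Dusp19, at 0.41 and 0.34. Dusp15 was lower, with means of 17.4 ± 1.63 and 11.9 ± 3.83 CPM in sham and stimulated rats (SD, n = 5 each). The groups of Dusp15 just failed to overlap. The highest stimulated rat was at 15.15 CPM (335 reads) and the lowest sham rat at 15.17 CPM (367 reads). The share of all features separated in this direction was not counted. The log2 fold change of Dusp15 was -0.54 (SE 0.21, unadjusted p 0.0234). Dusp23 was at -0.64 (SE 0.28, unadjusted p 0.0372), and Dusp3, Dusp12, Dusp22 and Dusp26 lay between -0.20 and 0.05.

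In the Sprouty and Spred family 5 of 7 listed genes were tested. At the same threshold 3 were higher and 0 lower, where 6.7% and 3.16% of all features were. The higher genes were the members Spry2 and Spred1 and the non-member Spred2. Spry4 is a member too, and the median, 0.73, is the value of Spred1. Spred2, the close relative of Spred1, was at 15.4 to 20.7 CPM in sham rats and at 20.1, 40.5, 17.8, 72.6 and 22.9 CPM in stimulated rats. Its 3 highest rats were again 7, 9 and 10, and the log2 fold change was 0.98 (SE 0.32, unadjusted p 0.00905). Spry3 was at 0.27 (SE 0.40, unadjusted p 0.502). No gene of these 3 lists passed the adjusted threshold.

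**Figure D4:**
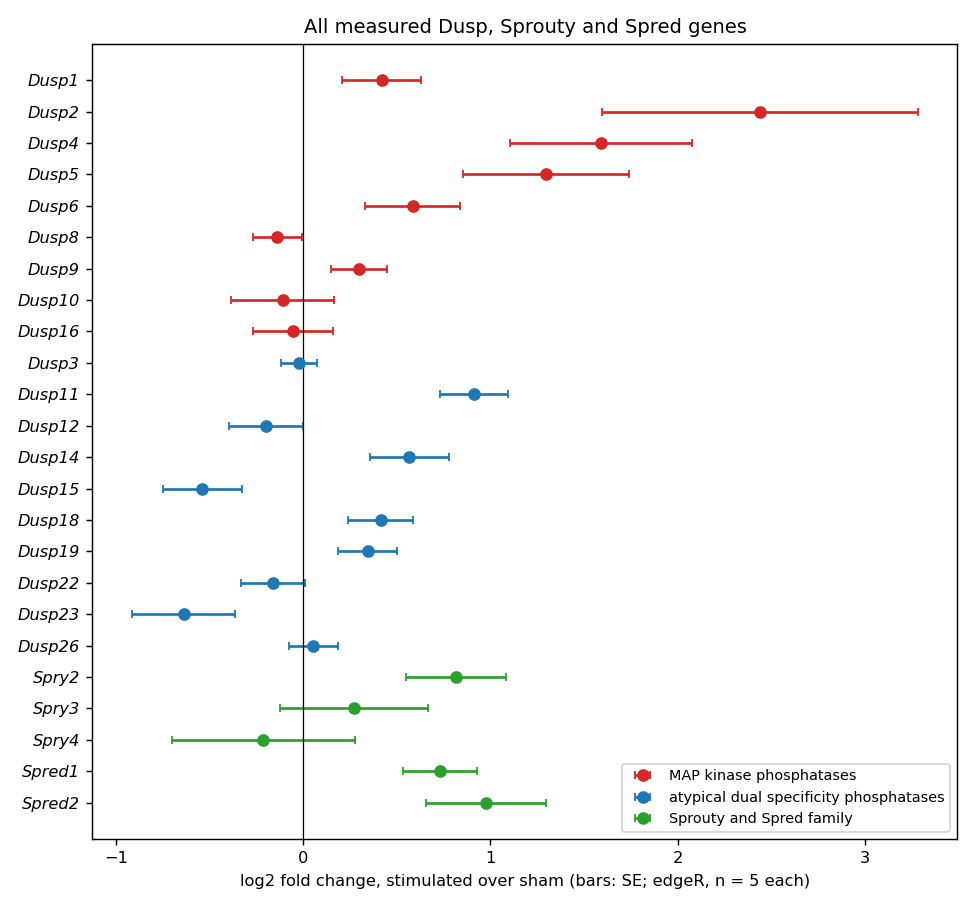
Log2 fold change of stimulated over sham rats (horizontal axis) with its SE from edgeR for the 24 tested genes of the dual specificity phosphatase and the Sprouty and Spred families, coloured by family. Dusp2, Dusp4 and Dusp5 lie farthest to the right and Dusp15 and Dusp23 to the left.

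Genes upstream of the brakes were read by role. Of 28 tested growth factors and receptors, 7 were higher and 1 lower at an unadjusted p under 0.05, where 6.7% and 3.16% of all features were. The median log2 fold change of the 28 was 0.15. Of the higher genes, Hbegf and Vegfa are on the study's list from these same rats, so this count is not independent evidence for them. Bdnf, a neurotrophin that activates ERK through its receptor, averaged 5.58 ± 0.976 CPM in sham rats against 39.3 ± 40.1 CPM after stimulation (SD, n = 5 each). By rat it was 4.84, 91.8, 4.79, 71.7 and 23.3 CPM in rats 6 to 10, so rats 7, 9 and 10 were above the sham range and rats 6 and 8 were not. Its log2 fold change was 2.81 (SE 0.69, unadjusted p 0.00123). Hbegf, a ligand of the EGF receptor, was above all sham rats in all 5 stimulated rats, at a log2 fold change of 2.59 (SE 0.66). The highest was rat 7, at 69.8 CPM, with rat 9 next at 10.8 CPM. Rat 6, at 5.52 CPM, was just above sham rat 1, at 5.175 CPM. Such a separation was seen in 0.695% of all features. Egf was below all sham rats in all 5, at -0.94 (SE 0.32, unadjusted p 0.0103). It was near the floor, and the margin was small. The highest stimulated rat, rat 9, was at 0.816 CPM (16 reads) and the lowest sham rat, rat 3, at 0.925 CPM (17 reads). The share of all features separated in this direction was not counted.

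Genes of the kinase cascade came next. Of 19 tested genes from Grb2 to the ribosomal S6 kinases, 2 were higher and 1 lower, a share near the 6.7% and 3.16% of all features, and the median log2 fold change was 0.04. The lower gene was Mapk3, which encodes the ERK1 kinase, with means of 549.7 ± 157 and 348 ± 88.7 CPM in sham and stimulated rats (SD, n = 5 each). Its log2 fold change was -0.66 (SE 0.21, unadjusted p 0.00683), and 3 stimulated rats lay inside the sham range. Grb2, an adaptor between receptors and Ras, was at 0.43 and Rps6ka3, a kinase that ERK activates, at 0.50. Of 13 tested JNK, p38 and ERK5 kinases 1 was higher, Map2k3 at 0.82 (SE 0.31, unadjusted p 0.0204), 0 were lower, again near the share of all features, and the median was 0.07. Other brakes on Ras and ERK counted 12 tested genes, of which 1 was higher, Errfi1, an inhibitor of the EGF receptor, at 0.81 (SE 0.28), and 1 lower, Rasal1 at -0.52 (SE 0.24), also near the share of all features, with a median of 0.12.

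Transcripts known to respond to ERK had the largest median of these lists. Of 14 tested genes 8 were higher and 0 lower at an unadjusted p under 0.05, where 6.7% and 3.16% of all features were. The median log2 fold change was 0.85. The study's list of changed transcripts, from these same rats, already holds Fos, Egr1, Egr2 and Etv5. This count is thus not independent evidence for them. For Fos the sham mean was 4.12 ± 0.750 CPM and the stimulated mean 45.8 ± 42.4 CPM (SD, n = 5 each). In rats 6 to 10 it was at 5.61, 106.3, 5.23, 50.3 and 61.7 CPM. The same 3 rats stood out as for Dusp4, Dusp5 and Spry2, and rat 6 was just above the highest sham rat, at 5.32 CPM. Egr2 had a log2 fold change of 3.32 (SE 0.79) and Ier2 of 0.80 (SE 0.25). None of the genes in these 5 lists passed the adjusted threshold.

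**Figure D5:**
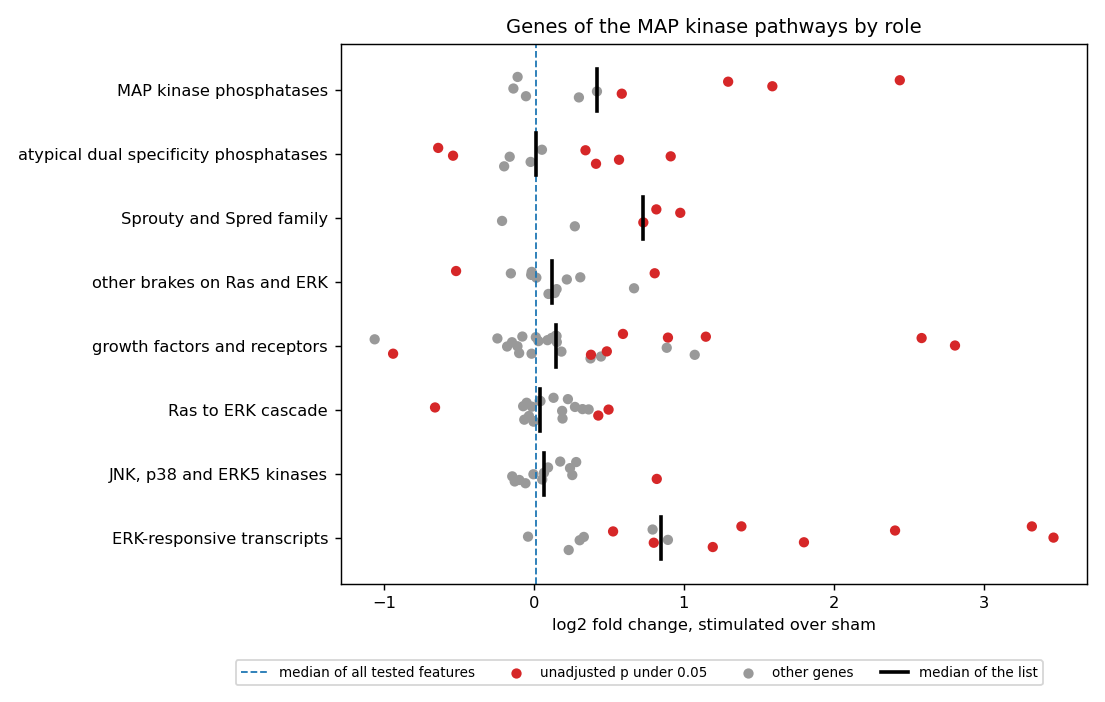
Log2 fold change of stimulated over sham rats (horizontal axis) for each tested gene of 8 lists; red points have an unadjusted p under 0.05, black bars are list medians and the dashed line is the median of all features. The bars of the Sprouty and Spred genes and of the ERK-responsive transcripts, at 0.73 and 0.85, lie farthest from the dashed line. The lists of phosphatases and of Sprouty and Spred genes include the members.

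The genes with the pattern most like that of 3 members were found by the root mean square difference over the 10 rats in log2 CPM relative to each gene's own sham mean, among 9677 candidate features. For Dusp4 they were Pcdh8, Pdp1, Tamalin and Klf10, at differences of 0.20, 0.23, 0.27 and 0.28. Pcdh8 was at 115 to 141 CPM in sham rats and at 112, 347, 111, 1090 and 285 CPM in rats 6 to 10, the order of Dusp4 in rats 7, 9 and 10. For Dusp11 they were Lrrc8c, Arhgef7, Rnd3 and Pecam1, at 0.20, 0.26, 0.27 and 0.29. All of these genes for Dusp11 are on the study's list of changed transcripts from these same rats. For Dusp4, so are Pdp1 (by another transcript), Tamalin (listed there as Grasp) and Klf10. No gene came as close to Spry4, for which Dyrk3, Prr5l, Sppl2a and RT1-Da were nearest at 0.59, 0.59, 0.60 and 0.61. These differences take in sham rat 3, where Spry4 was 1.91 above its sham mean and where its reads may not all be from Spry4.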

How the data were processed

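Messenger RNA was measured in 10 samples, each from a separate rat that the methods say was processed individually. The deposited values are raw counts per transcript: the authors aligned single reads of 36 bases to RN4 with BWA and counted them by their own script on an Ensembl annotation. The rows carry RefSeq identifiers, and the treatment of shared reads is not given in the sources used here.

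A row for reads without alignment was not used. Features with a summed count under 46 (the 30th percentile of 32041 rows) were left out, and 22447 were tested. Symbols came from the RefSeq table of GRCr8 (57.8% of tested features, 12321 symbols), used for names and neighbours, and promoters from the RefSeq promoter table. Groups were compared in edgeR 4.0.16 by its quasi-likelihood test (R 4.3.3, TMM factors, no covariate, Benjamini-Hochberg adjustment over all tested features). Unadjusted and adjusted p-values come from this fit unless another test is named. CPM used TMM-scaled library sizes, and log2 CPM a prior count of 2. Exact permutation tests were two-sided. Poisson intervals cover counting error only. Within a group, no 2 libraries agreed within sampling noise (lowest chi-square per degree of freedom 8.28).

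The members, lists and markers were chosen with earlier results of these data known. From the lists of the 2 phosphatase families and of Sprouty and Spred any gene could be named, from each further list the 3 genes with the lowest p, and for pattern likeness the 4 nearest features of at least 5 CPM. Alternatives were other size factors and filters, the likelihood ratio and exact tests of edgeR, limma-voom (limma 3.58.1), robust empirical Bayes, DESeq2 1.42.0 and leaving out each rat. The fits were tested on simulated data. Python tools were numpy 2.4.6, pandas 2.3.3, scipy 1.17.1 and matplotlib 3.10.9.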

Additional observations from a re-analysis of the deposited data

Results flagged for a closer look

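The level of Spry4 in sham rat 3, 49.4 CPM, stood apart from the other 4 sham rats, which were between 6.11 and 13.0 CPM. Whether its 907 reads all came from Spry4 cannot be told from the count table. Its gap to the nearest of them was 0.841 of the range of the group, over Dixon's critical value of 0.71 for 5 samples. Of the 18 groups of values tested (9 genes in sham and in stimulated rats), 1 was over the critical value, where chance gives 0.9.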

How the results depend on the processing

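Of the 9 measured genes, 8 had the same sign in each of 22 alternatives, and Spry4 turned positive in 3 of them: 0.14 with limma-voom, 0.65 without sham rat 3, and 0.10 as the difference of mean log2 CPM in the exact permutation test. Genes of the set at an adjusted p under 0.05 numbered 1 instead of 0, Dusp11, with the likelihood ratio test, the exact test and DESeq2, which called 119, 90 and 33 features. In fits that left out 1 rat both counts stayed at 0. Genes at an unadjusted p under 0.05 numbered 5 (without rat 7) to 8 (without rat 8) over those fits, beside 1671 to 3123 features, and genes whose groups did not overlap 2 to 3 (Dusp1 joined without rat 8), beside 0.953% to 1.85% of features. Dusp6 was over 0.05 with limma-voom, with robust empirical Bayes and without rats 1, 4, 5, 7 or 10, Dusp5 without rat 9 and Dusp14 without rat 7. In the exact permutation test Dusp4, Dusp5, Dusp6, Dusp14 and Spry2 were over 0.05 (p = 0.0714 to 0.183). Over the fits without 1 rat the log2 fold change ran from 0.26 to 0.56 for Dusp1, 0.85 to 1.81 for Dusp4, 0.81 to 1.52 for Dusp5, 0.31 to 0.71 for Dusp6, 0.41 to 0.66 for Dusp14, 0.82 to 0.99 for Dusp11, 0.55 to 0.97 for Spry2, -0.44 to 0.65 for Spry4 and 0.54 to 0.81 for Spred1. The cause of these shifts was not tested beyond the omission itself. At 38 to 61 reads in the sham rats, counting error limits Dusp11 most.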

Other observations

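The shares of ribosomal and of unaligned reads were set beside Mapk3, the only listed kinase gene lower in stimulated rats at an unadjusted p under 0.05. In sham rats 1 to 5 Mapk3 was at 729, 663.5, 537, 494.6 and 324 CPM, and ribosomal RNA took 12.2%, 8.73%, 7.42%, 6.18% and 1.82% of aligned counts, the same order of rats. In stimulated rats 6 to 10 Mapk3 was at 350.7, 274.5, 432.7, 438 and 244 CPM and the ribosomal share was 4.21%, 4.80%, 5.64%, 5.28% and 3.03%, which is not the same order, although rat 10 was lowest on both. The share of unaligned reads was 32.8% to 37.1% in sham rats and 35.6%, 32.0%, 41.4%, 42.9% and 45.1% in rats 6 to 10, so of the 3 rats with the highest Dusp4, rat 7 had the lowest share of the 10 and rat 10 the highest.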
